A study of Homo sapiens with 6 samples.

Results

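The Hippo pathway restrains growth through a chain of kinases, and 10 of its genes were followed in HCC827 cells with and without inhibition of EGFR. They were taken by symbol from a table of 28395 genes, and each of the 10 was found and tested. NF2, WWC1 and FRMD6 act upstream, STK3, STK4 and SAV1 form the first kinase step, LATS1 and LATS2 are the second, and MOB1A and MOB1B are the coactivators of LATS. HCC827 is a cell line from a human lung adenocarcinoma whose EGFR gene carries an activating mutation, and erlotinib inhibits the EGFR kinase. The comparison was made between 3 libraries of cells given the solvent DMSO and 3 libraries of cells given 1 μM erlotinib, both for 24 h, with no genetic change added in either group. All 6 libraries came from this 1 line, so the values describe a single tumour model at a single time. The labels do not say that the libraries of a group came from separate cultures, so p-values measure only the spread between these samples, which may be technical.

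In the Hippo cascade, the kinases MST1 (gene STK4) and MST2 (gene STK3), held by the scaffold SAV1, phosphorylate LATS1, LATS2 and MOB1. The activated LATS kinases phosphorylate the coactivators YAP and TAZ, which then stay out of the nucleus and no longer act with TEAD transcription factors. Merlin (NF2), KIBRA (WWC1) and Willin (FRMD6) work at the cell cortex and junctions and promote this signalling, and LATS2 and NF2 are known from other settings as genes that YAP and TEAD can activate in return. Much of the regulation of the cascade is by phosphorylation, which RNA-seq does not measure.

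The depth was 20858083, 24641819 and 21172884 reads on genes in DMSO libraries DMSO1 to DMSO3, and 21944007, 20760204 and 21678395 in erlotinib libraries Erlo4 to Erlo6. Values are given as signal, which is the number of reads divided by the size factor of the library. Between 410 and 5628 reads stood behind each value of the 10 genes. Correlated across genes, and genes are no replicates, log2 values of libraries gave a Pearson's r of 0.983 to 0.990 within a group and 0.901 to 0.910 between groups.

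The treatment was visible in genes that ERK signalling induces. All 5 of DUSP6, SPRY2, SPRY4, ETV4 and ETV5 fell with erlotinib. The log2 change was -4.33 for the ERK phosphatase DUSP6 and -0.25 for the feedback inhibitor SPRY2. The SPRY2 call was lost when libraries were scaled to equal totals (log2 change -0.07, adjusted p = 0.564, limma). It was also lost without DMSO1, Erlo4 or Erlo6 (adjusted p up to 0.195, limma). The mean signal of the epithelial marker EPCAM was 9852 without and 9485 with erlotinib, and CDH1, which encodes E-cadherin, had 27824 and 30609. Neither passed the test, whereas the keratins KRT8, KRT18 and KRT19 fell, with log2 changes of -0.83, -1.25 and -0.39.

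Of the 10 Hippo genes, 6 fell with erlotinib, 1 rose and 3 passed in neither direction (limma, Benjamini-Hochberg adjusted p under 0.05 over 14215 genes). Among all tested genes, 35.4% were lower and 35.3% were higher by the same rule, so a call alone did not set a gene apart. The median log2 change was -0.35 over the 10 genes and 0.02 over all tested genes. The DMSO and erlotinib libraries did not overlap for 7 of the 10 genes, against 73.6% of all tested genes. The genes that fell were FRMD6, NF2, WWC1, STK4, MOB1A and SAV1, the gene that rose was LATS2, and STK3, LATS1 and MOB1B passed in neither direction. In bulk RNA, fewer cells with a transcript and less of it per cell cannot be told apart.

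**Figure D1:**
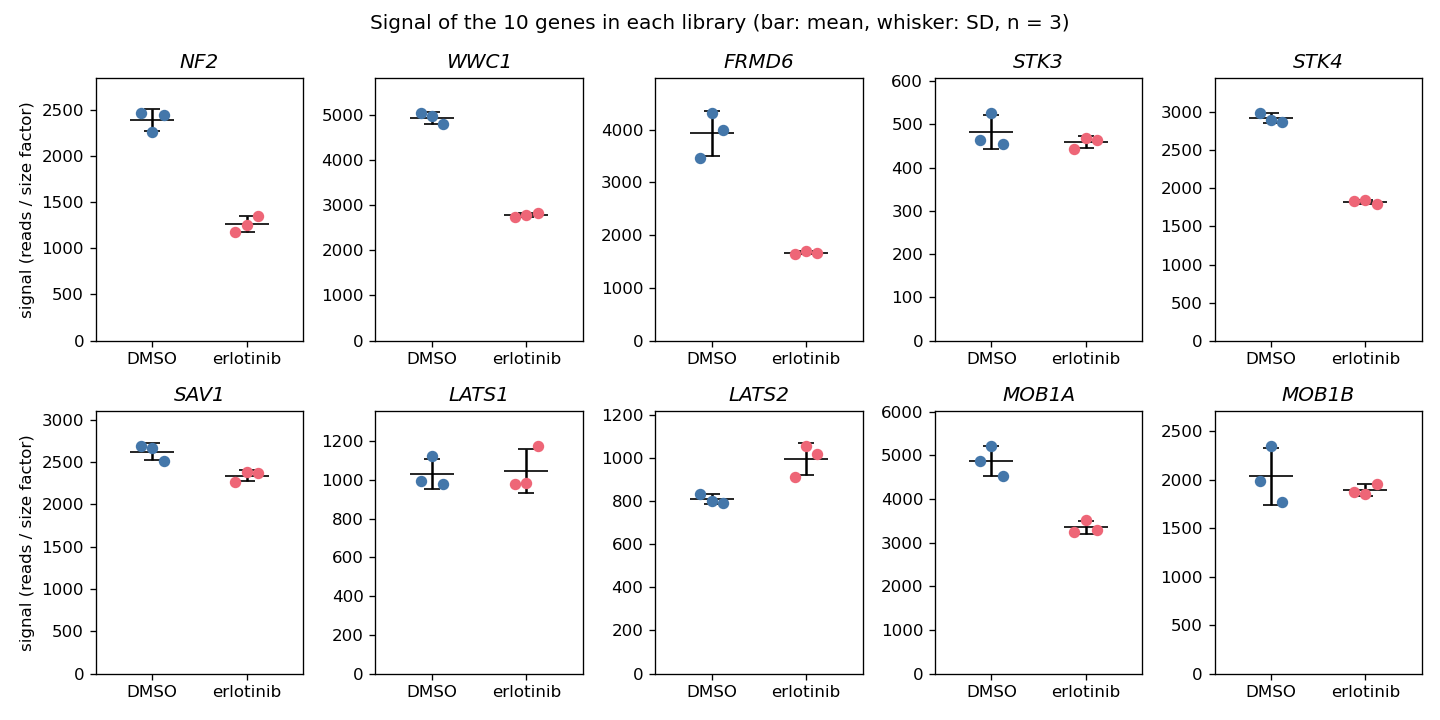
Signal (reads divided by the size factor, linear axis from 0) of each of the 10 genes in every library, with points for single libraries, a bar for the mean and whiskers for the SD (n = 3 per group). The erlotinib points of NF2, WWC1, FRMD6, STK4, SAV1 and MOB1A lie below all DMSO points, those of LATS2 lie above, and those of STK3, LATS1 and MOB1B overlap with DMSO.

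Sequence just before the start of transcription is shown for the upstream genes, which fell together, and for LATS2, which rose. Each run is 250 bases 5′ to 3′ on the strand of the gene, ends at the base before an annotated start, and comes from RefSeq (GRCh38.p14). The runs lie at chr14:51488878-51489127 (plus strand) for FRMD6, chr22:29603306-29603555 (plus) for NF2, chr5:168291395-168291644 (plus) for WWC1 and chr13:21061587-21061836 (minus) for LATS2.
FRMD6: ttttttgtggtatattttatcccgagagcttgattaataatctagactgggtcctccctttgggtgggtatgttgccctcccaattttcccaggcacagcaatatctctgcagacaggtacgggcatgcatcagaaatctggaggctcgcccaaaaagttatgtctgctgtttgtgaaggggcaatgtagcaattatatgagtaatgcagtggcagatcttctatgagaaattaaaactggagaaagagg
NF2: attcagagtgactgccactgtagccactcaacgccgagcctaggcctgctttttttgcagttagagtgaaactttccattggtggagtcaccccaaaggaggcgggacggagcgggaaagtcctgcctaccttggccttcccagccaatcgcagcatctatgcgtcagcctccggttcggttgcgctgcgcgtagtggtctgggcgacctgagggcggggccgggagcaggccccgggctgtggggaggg
WWC1: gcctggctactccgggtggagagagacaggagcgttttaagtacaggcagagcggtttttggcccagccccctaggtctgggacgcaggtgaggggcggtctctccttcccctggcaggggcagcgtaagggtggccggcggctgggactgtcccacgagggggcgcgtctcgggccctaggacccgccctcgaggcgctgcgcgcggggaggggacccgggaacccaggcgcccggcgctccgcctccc
LATS2: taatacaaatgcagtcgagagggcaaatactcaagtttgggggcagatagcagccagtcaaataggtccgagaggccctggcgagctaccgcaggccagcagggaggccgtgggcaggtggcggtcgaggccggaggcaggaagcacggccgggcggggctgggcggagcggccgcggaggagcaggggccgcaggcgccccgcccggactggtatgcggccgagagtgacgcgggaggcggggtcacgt
G and C made up 43.6% of the FRMD6 run, 62.4% of the NF2 run, 72.4% of the WWC1 run and 69.6% of the LATS2 run. NF2 has a further annotated start at 29603633, and the 250 bases before it, which overlap the run shown, held 71.6% G and C. The FRMD6 run belongs to a start at 51489128, inside the gene's annotated span, which begins at 51396431.

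Windows of 300 bases around starts (250 before and 50 after) were found for 9 of the 10 genes, 12 windows in all, as some genes have a further start. They were searched on both strands for GGAATG (reverse CATTCC), the core letters of TEAD sites, and for GTAAACA (reverse TGTTTAC), a forkhead motif, which do not overlap each other in letters. GGAATG was present in 14.03% of 35116 windows of all genes, and among the 12 windows of the 9 genes only in that of LATS2. At that share, a match does not by itself set LATS2 apart. GTAAACA was present in 3.42% of windows and in 0 of the 12 windows of the 9 genes. In LATS2 the match, in capitals, stands just inside the transcript, within 30 bases at chr13:21061560-21061589 (minus strand).
LATS2 match: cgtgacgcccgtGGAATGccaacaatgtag
A match describes the letters of the window and does not show that a factor binds there.

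The 3 upstream genes were lower in every erlotinib library than in any DMSO library. Such a separation of the groups, in either direction, was seen for 73.6% of all tested genes. FRMD6 (Entrez 122786, chromosome 14, 51396431 to 51730727), which encodes the FERM-domain protein Willin, had signals of 3469, 4321 and 3986 in DMSO and 1644, 1698 and 1653 with erlotinib. Even the lowest DMSO library was far above the highest erlotinib library, and the DMSO libraries were the more spread. The mean went from 3925 ± 429 to 1665 ± 28.97 (SD, n = 3 each), a log2 change of -1.23 (SE 0.08, 95% interval -1.39 to -1.07, adjusted p = 1.4e-11, limma). Of all tested genes, 7.60% had a lower log2 change than FRMD6. The antisense gene FRMD6-AS1 overlaps it, and its mean signal was 2.70% of that of FRMD6, while the strand of counting is not stated.

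NF2 (Entrez 4771, chromosome 22, 29603556 to 29698600) encodes Merlin, which links the cortex to the LATS kinases. Its signal was 2469.6, 2257 and 2443.5 in DMSO and 1179, 1249 and 1349 with erlotinib. The groups were well apart, with DMSO2 the lowest of the DMSO libraries and Erlo6 the highest with erlotinib. The mean went from 2389.9 ± 116 to 1259 ± 85.2 (SD, n = 3 each), a log2 change of -0.92 (SE 0.08, adjusted p = 1.1e-09, limma).

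WWC1 (Entrez 23286, chromosome 5, 168291645 to 168472303) encodes KIBRA, a scaffold that joins Merlin and the kinases. It had signals of 5059, 4977 and 4796 in DMSO and 2747, 2786 and 2826 with erlotinib. Replicates were close to each other in both groups, and the groups did not overlap. The mean went from 4944 ± 135 to 2786 ± 39.4 (SD, n = 3 each), a log2 change of -0.83 (SE 0.06, adjusted p = 3.2e-10, limma). As a ratio of means, erlotinib over DMSO, the level was 0.424 for FRMD6, 0.527 for NF2 and 0.564 for WWC1.

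At the first kinase step STK4 fell, SAV1 fell slightly and STK3 did not pass the test. STK4 (Entrez 6789, chromosome 20, 44966512 to 45080021), which encodes the kinase MST1, had signals of 2998, 2905 and 2874 in DMSO and 1834, 1845 and 1792 with erlotinib. Both groups were tight, and no library came near the other group. The mean went from 2926 ± 64.8 to 1824 ± 28.2 (SD, n = 3 each), a log2 change of -0.68 (SE 0.07, adjusted p = 1.7e-08, limma).

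STK3 (Entrez 6788, chromosome 8, 98343975 to 98942610), which encodes the related kinase MST2, had signals of 465, 527 and 455 in DMSO and 444, 469 and 464 with erlotinib. The groups overlapped, and DMSO2 was the highest library. The log2 change was -0.07 (95% interval -0.29 to 0.15, adjusted p = 0.577, limma), and it was 0.11 under total-count scaling, in which libraries are set to equal totals in place of the deposited size factors. This interval covers a change of the size seen for SAV1 and leaves out one of the size seen for STK4.

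SAV1 (Entrez 60485, chromosome 14, 50633580 to 50668306), which encodes the scaffold Salvador, had signals of 2696, 2672 and 2511 in DMSO and 2264, 2382 and 2378 with erlotinib. The highest erlotinib library lay just under the lowest DMSO library. The log2 change was -0.17 (SE 0.07, adjusted p = 0.0381, limma), the smallest of the 7 that passed. The call was lost under total-count scaling, where the log2 change was 0.01 (adjusted p = 0.858, limma), and it was also lost with TMM factors in limma and in edgeR and without any 1 of DMSO1, Erlo4, Erlo5 or Erlo6.

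LATS2 was the one gene of the cascade that rose, and LATS1 did not pass the test. LATS2 (Entrez 26524, chromosome 13, 20973036 to 21061586), a kinase that phosphorylates YAP and TAZ, had signals of 835, 799.6 and 793 in DMSO and 914, 1057 and 1018 with erlotinib. All erlotinib libraries were above all DMSO libraries, with Erlo4 the nearest to them. The mean went from 809 ± 22.5 to 996 ± 74.3 (SD, n = 3 each), a log2 change of 0.30 (SE 0.09, 95% interval 0.11 to 0.48, adjusted p = 0.00523, limma). A rise of this size was not rare, since 62.3% of the tested genes had a lower log2 change.

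LATS1 (Entrez 9113, chromosome 6, 149658153 to 149718101), the other kinase of this step, had signals of 991, 1121 and 979 in DMSO and 977, 984 and 1177 with erlotinib. One library in each group, DMSO2 and Erlo6, was higher than the rest, and the groups overlapped. The log2 change was 0.02 (95% interval -0.18 to 0.21, adjusted p = 0.866, limma), and it turned to -0.07 without Erlo6 and was also below 0 without DMSO1 or without DMSO3.

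Of the coactivators, MOB1A fell and MOB1B did not pass the test. MOB1A (Entrez 55233, chromosome 2, 74152528 to 74178879) had signals of 4869, 5227 and 4524 in DMSO and 3255, 3527 and 3281 with erlotinib. The groups were apart, with a wider spread in DMSO. The mean went from 4873 ± 351 to 3354 ± 150.3 (SD, n = 3 each), a log2 change of -0.54 (SE 0.07, adjusted p = 7.6e-07, limma). MOB1A and MOB1B encode very similar proteins, and reads that fit both genes equally well would not have been counted as uniquely mapped.

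MOB1B (Entrez 92597, chromosome 4, 70901851 to 70988168) had signals of 1989.8, 2354 and 1772 in DMSO and 1877, 1849 and 1961 with erlotinib. The DMSO libraries held both the highest and the lowest value, so that the erlotinib libraries lay within their range. The log2 change was -0.10 (95% interval -0.28 to 0.09, adjusted p = 0.341, limma). It was 0.01 without DMSO2 and 0.08 under total-count scaling. DMSO2, the deepest library, was the highest DMSO library for 5 of the 10 genes.

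**Figure D2:**
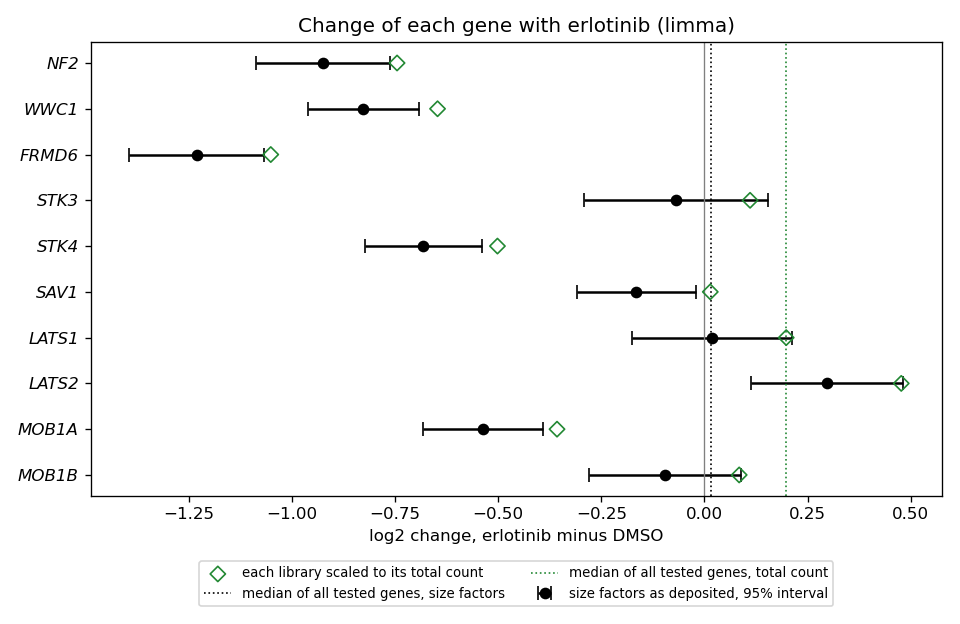
Log2 change (erlotinib minus DMSO) of the 10 genes with the deposited size factors (filled points, 95% interval from limma, n = 3 per group) and under total-count scaling (open diamonds). Dotted lines mark the median of all tested genes under each scaling. The diamonds lie to the right of the points by about the shift of that median, from 0.02 to 0.20, and FRMD6 is the lowest and LATS2 the highest under both.

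The scaling moved all genes together. Under total-count scaling, 3951 genes were lower and 6180 higher, in place of 5031 and 5012 with the deposited size factors, and the median log2 change was 0.20 in place of 0.02. The log2 changes were then -1.05 for FRMD6, -0.75 for NF2, -0.65 for WWC1, -0.50 for STK4, -0.36 for MOB1A and 0.48 for LATS2, each still past the threshold. SAV1, STK3 and MOB1B changed sign under this scaling. Relative to the median of all genes, FRMD6 stood at -1.25 and SAV1 at -0.18 under either scaling.

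Levels of different genes were compared as signal per kb of exon, over the union of exons in GENCODE release 44. In DMSO the level per kb was highest for MOB1A at 757, followed by WWC1 at 490.4, SAV1 at 469, FRMD6 at 417, NF2 at 323, MOB1B at 232, STK4 at 177, LATS2 at 144, LATS1 at 121 and STK3 at 38.3. The libraries of WWC1 and SAV1 overlapped in this order, as did those of SAV1 and FRMD6. With erlotinib the level per kb was 521 for MOB1A, 418 for SAV1, 276 for WWC1, 215 for MOB1B, 178 for LATS2, 177 for FRMD6, 170.3 for NF2, 123 for LATS1, 110.05 for STK4 and 36.4 for STK3. LATS2 overlapped with FRMD6, and FRMD6 with NF2, so the order of these 3 was not resolved. The order depends on the length used. Over the longest transcript STK3 was again the lowest in both groups and MOB1A the highest in DMSO, but with erlotinib SAV1, at 757, was above MOB1A, at 685, and in DMSO WWC1 moved from rank 2 to rank 4. With that length the level in DMSO was 849 for SAV1, 766 for FRMD6, 363 for STK4 and 90.5 for STK3, each more than 1.5 times that over the union of exons.

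The balance within pairs of related genes is given as values, since 3 against 3 libraries cannot take an exact test past the threshold. STK4 made up 82.2% ± 1.27 of the level per kb of STK4 and STK3 together in DMSO against 75.1% ± 0.655 under erlotinib (SD, n = 3 each). LATS2 made up 54.3% ± 2.15 of its pair with LATS1 in DMSO, and 59.1% ± 2.64 under erlotinib. These shares rest on the union of exons. Over the longest transcript the DMSO means were 145.91 for LATS2 and 139.99 for LATS1, and their libraries overlapped. Which of LATS1 and LATS2 was higher in DMSO thus depends on the length used. MOB1B made up 23.4% ± 1.29 of its pair with MOB1A in DMSO and 29.3% ± 1.39 with erlotinib. The libraries of the groups did not overlap in these 3 pairs, as is also so for 73.6% of all single genes. The difference in the log2 ratio, erlotinib minus DMSO, was -0.61 for STK4 over STK3, 0.28 for LATS2 over LATS1 and 0.44 for MOB1B over MOB1A. Each had a two-sided exact permutation p of 0.1, the smallest this design allows, and 0.1 after adjustment over the 3 pairs, so no pair passed.

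**Figure D3:**
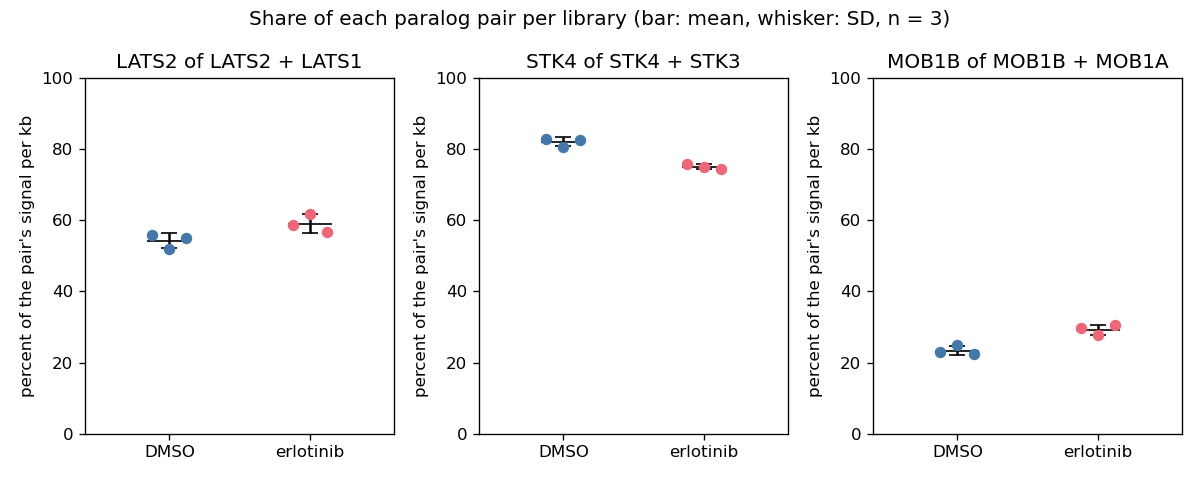
Share (percent, axis from 0 to 100) of the first gene in the summed signal per kb (union of exons) of each pair, in every library, with a bar for the mean and whiskers for the SD (n = 3 per group). With erlotinib the mean share of STK4 is 75.1% against 82.2% in DMSO, that of LATS2 59.1% against 54.3% and that of MOB1B 29.3% against 23.4%. The exact test cannot pass the threshold with 3 libraries per group, as its smallest p is 0.1.

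FRMD6 had the largest change of the 10 genes. Of the 11067 genes whose mean signal reached 100, those whose signal followed that of FRMD6 most closely over the 6 libraries were ZNF101, DDX19A and RBL1. RBL1 encodes p107, a relative of the retinoblastoma protein, and DDX19A an RNA helicase. Pearson's r was 0.9993 for ZNF101, 0.9993 for DDX19A and 0.9992 for RBL1. These values are a description, since the 6 libraries form 2 groups that differ for most genes.

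The other genes around the cascade were described from 6 lists by role, 74 genes in all, of which 67 were tested. With erlotinib 25 were lower (37.3%) and 22 were higher (32.8%), close to the 35.4% and 35.3% among all tested genes. The median log2 change of the 67 was 0.01. Under total-count scaling, 16 were lower and 32 higher.

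Among relatives of the LATS coactivators and scaffolds, 1 of 8 tested genes fell (12.5%) and 4 rose (50%). WWC2, a relative of WWC1, had a log2 change of -0.59, and MOB3C, a relative of MOB1, one of 0.86. MOB2 (0.50), the NDR kinase gene STK38 (0.42) and MOB3B (0.41) also rose, and under total-count scaling 7 rose in place of 4. Of 9 tested MAP4K and TAO kinases, which can phosphorylate LATS or MST, 3 fell (33.3%) and 1 rose (11.1%). The count of 3 went to 0 under total-count scaling, where 2 rose, and to 1 without Erlo4, without Erlo6 or at an adjusted p under 0.01. MAP4K5 had a log2 change of -0.28 and MINK1 one of 0.43, while MAP4K4 had one of -0.18 that went to 0.00 under total-count scaling and lost its call without Erlo4, Erlo5 or Erlo6 (adjusted p up to 0.0861, limma). TNIK, with 55 to 112 reads, had a log2 change of -0.57 (SE 0.23, adjusted p = 0.0357, limma). Its call was also lost with no filter, in DESeq2, in edgeR and without any 1 of DMSO1, DMSO2, Erlo4 or Erlo6, and without Erlo6 its log2 change was -0.36 (adjusted p = 0.203, limma).

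The STRIPAK complex joins protein phosphatase PP2A to MST kinases and opposes them. Of its 16 tested genes 10 fell (62.5%) and 1 rose (6.25%), against 35.4% and 35.3% of all tested genes. The median log2 change of the 16 was -0.33. Under total-count scaling 7 fell and 3 rose. The scaffold gene STRIP2 went from a signal of 974 ± 78.6 to 379 ± 42.3 (SD, n = 3 each), a log2 change of -1.36 (SE 0.11, adjusted p = 3.6e-10, limma). The MST-related kinase gene STK26 had a log2 change of -0.95 and the PP2A catalytic subunit gene PPP2CA one of -0.83, and CTTNBP2NL rose by 0.97.

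Of 17 tested regulators at cell junctions and of polarity, 5 fell (29.4%) and 9 rose (52.9%). Under total-count scaling 3 fell and 10 rose, and at an adjusted p under 0.01 3 fell and 8 rose. AMOT, whose product angiomotin binds YAP, went from a signal of 202 ± 12.3 to 730.3 ± 61.5 (SD, n = 3 each), a log2 change of 1.84. The large cadherin gene FAT4 changed by 1.59, the polarity gene LLGL2 by 1.49 and the Crumbs gene CRB3 by 1.25. PTPN14, a phosphatase that binds YAP and KIBRA, fell by 0.92, and PALS1, DLG1 and PRKCI fell by 0.54, 0.28 and 0.22 on the log2 scale. The groups of DLG1 overlapped, and its call was lost without Erlo5. That of PRKCI was lost without DMSO2, where its log2 change was -0.13, or without Erlo6. Among those that rose, PATJ, whose groups overlapped, had a log2 change of 0.24 (adjusted p = 0.015, limma). Its call was lost without DMSO1, DMSO3 or Erlo6 and at an adjusted p under 0.01.

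Of 11 tested genes in the list of LATS inhibitors and of ubiquitin ligases, 4 fell (36.4%) and 5 rose (45.5%). The ligase gene NEDD4 went from a signal of 2048 ± 276 to 928 ± 47.4 (SD, n = 3 each), a log2 change of -1.13. SIAH2 fell by 0.44 and ITCH by 0.41 on the log2 scale, and PJA2, NEDD4L, LIMD1 and TRIP6 rose by 0.77, 0.53, 0.37 and 0.31. WTIP, with 25 to 82 reads and groups that overlapped, had a log2 change of 0.94 (SE 0.33, adjusted p = 0.015, limma). Without DMSO2 it was 0.59 (adjusted p = 0.0856, limma), and 4 genes of the list then rose. ZYX, whose groups overlapped, had a log2 change of -0.20 (adjusted p = 0.0261, limma). Under total-count scaling the ZYX log2 change was -0.02 and the call was lost (adjusted p = 0.835, limma). The call was also lost without any 1 library other than DMSO2 (adjusted p up to 0.135, limma). Of 6 RASSF genes, whose products bind MST kinases, 2 fell and 2 rose (33.3% each), near the shares among all tested genes. RASSF4 went from a signal of 76.7 ± 20.9 to 368 ± 55.3 (SD, n = 3 each), a log2 change of 2.27, RASSF2 changed by 0.85, RASSF1 by -0.91 and RASSF3 by -0.39.

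**Figure D4:**
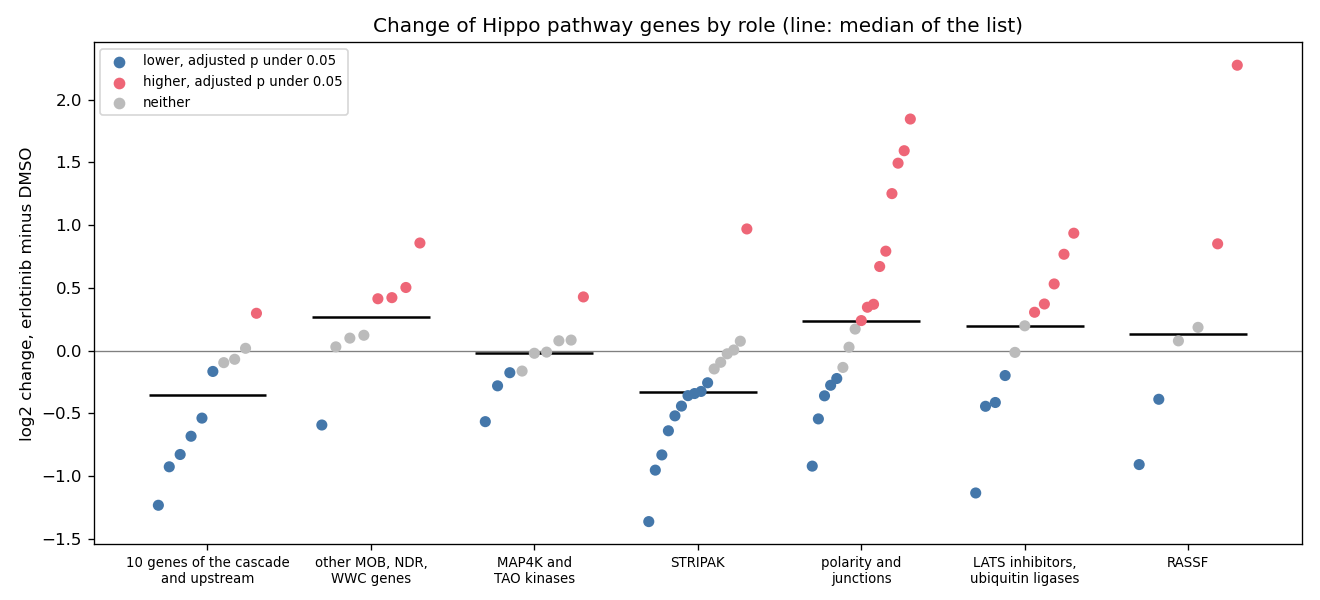
Log2 change (erlotinib minus DMSO) of each tested gene of the cascade and of 6 lists of related genes, coloured by the limma call (adjusted p under 0.05), with a line for the median of each list. The medians are -0.35 for the 10 genes of the cascade and -0.33 for STRIPAK, and the lists of polarity, RASSF and LATS-inhibitor genes hold changes in both directions.

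Downstream of the cascade, the coactivator gene WWTR1 (TAZ) fell by 0.40 on the log2 scale, and YAP1 had a log2 change of -0.18 that went to 0.00 under total-count scaling and lost its call without Erlo6 (adjusted p = 0.106, limma). Of the TEAD genes, TEAD1 and TEAD4 fell by 0.24 and 0.48, and TEAD3 rose by 0.59. TEAD2 went from a signal of 187 ± 35.2 to 706 ± 60.1 (SD, n = 3 each), a log2 change of 1.92 (SE 0.14, adjusted p = 8.0e-11, limma). Of the 53 called genes in the lists and downstream of the cascade, 11 lost their call under total-count scaling. They were STRN3, SLMAP and PPP2CB of STRIPAK, MAP4K4, MAP4K5 and TNIK, DLG1 and PRKCI, ZYX, and TEAD1 and YAP1, and of these only MAP4K4 and YAP1 changed sign.

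Markers of other cell types moved with the treatment in some cases. Of 5 fibroblast markers COL1A1 alone was tested and was the most abundant, at 77.7 in DMSO and 216 with erlotinib, and COL1A2, COL3A1 and DCN had at most 3 reads in any library. The summed signal of these 5 was 73.7, 75.2 and 104 in DMSO and 258, 223 and 211 with erlotinib. Of 5 leukocyte markers CD68 was the most abundant and went from 2898 to 3394, a call that was lost without Erlo5 (adjusted p = 0.0514, limma), and PTPRC, the marker that defines leukocytes, had at most 6 reads. Their summed signal was 2782, 2789.8 and 3164 in DMSO and 3217, 3534 and 3465 with erlotinib. Of 3 endothelial markers VWF went from 3.94 to 27.4, PECAM1 had 15.7 and 10.4, and CDH5 at most 13 reads, with summed signals of 34.03, 15.8 and 20.3 in DMSO and 58.1, 42.6 and 43.1 with erlotinib. The part of these markers in the changes of the Hippo genes was not tested.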

How the data were processed

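The data are 6 RNA-seq libraries from HCC827 cells. Per the study's methods and the submitters' processing notes, paired-end reads were mapped to GRCh38 with Bowtie2 2.3.4 and uniquely mapped reads were counted per gene with featureCounts 1.6.3, and DESeq2 1.18.1 is also named. The deposited signal values are reads divided by 1 size factor per library (0.882 to 1.08), since 100% of values are whole multiples of the library's step within 0.01. The division and the counting strand are not given in the sources used here. Bowtie2 does not split reads over introns, which can lower counts of genes with short exons.

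The design had named a test for counts where the table would hold them. As it holds signal, limma 3.58.1 (R 4.3.3) was run on log2(signal + 1) with a mean-variance trend, over the 14215 genes whose mean signal reached 10. Fold changes are on this scale, tests were two-sided and p-values were adjusted by Benjamini-Hochberg (threshold 0.05). Ratios of related genes were tested by exact permutation with scipy 1.17.1. Recovered reads were tested with edgeR 4.0.16, DESeq2 1.42.0 and limma-voom as alternatives, and scripts were tested on simulated data. Columns Erlo4 to Erlo6 were used as replicates of the erlotinib group, since they carry no number of the labels. Sequences came from RefSeq.

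The 10 genes and the lists were chosen with earlier results of these data known. Named were the 10 genes, in each list the called genes that changed by at least 1 log2 unit or else the 2 that changed most, and the 3 genes most like FRMD6. Other named genes, including those that fill small counts, were chosen after their values were seen. A single gene of the lists is not reported here by name, but is part of the counts.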

Additional observations from a re-analysis of the deposited data

How the results depend on the processing

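NF2, WWC1, FRMD6, STK4, LATS2 and MOB1A kept their direction and call under all 15 alternatives run (total-count scaling, TMM factors in limma, pseudocounts of 0.1 and 10, no filter, at least 10 reads in every library, DESeq2, edgeR and limma-voom on recovered reads, and each library left out), and their calls held at an adjusted p under 0.01, where SAV1 lost its own. The LATS2 log2 change lay between 0.25 and 0.48. Under total-count scaling, the log2 change was 0.11 for STK3, 0.014 for SAV1, 0.084 for MOB1B, 0.00399 for MAP4K4 and 0.00346 for YAP1, each reversed, and 16 rather than 25 other pathway genes were lower. Leaving out 1 library gave LATS1 -0.069 to 0.081 and MOB1B -0.19 to 0.013. It gave 4721 to 5080 lower and 4559 to 5127 higher genes among all tested, and the differences in log2 ratio were 0.19 to 0.35 for LATS2 over LATS1, -0.68 to -0.57 for STK4 over STK3 and 0.40 to 0.50 for MOB1B over MOB1A. SAV1 lost its call with TMM factors in limma (adjusted p = 0.0509) and in edgeR (0.0547), and without DMSO1 (0.106), Erlo4 (0.156), Erlo5 (0.0775) or Erlo6 (0.0707). Of 53 called genes in the lists and downstream, 40 kept their call throughout, and 11 were lost with total-count scaling. The cause of these differences was not tested.

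Levels per kb depend on the length used. Over the longest transcript in place of the union of exons, the levels in DMSO and with erlotinib were 398.7 and 210.04 for NF2, 692.8 and 390.5 for WWC1, 766.2 and 324.97 for FRMD6, 90.5 and 86.1 for STK3, 362.9 and 226.2 for STK4, 848.9 and 756.6 for SAV1, 139.99 and 142.1 for LATS1, 995.3 and 685.1 for MOB1A, and 294.2 and 273.6 for MOB1B. LATS2 moved little. No paired analysis was possible because the erlotinib columns do not carry the sample numbers of the labels. At 3 libraries per group, the width of the intervals limits what can be said of STK3, LATS1 and MOB1B.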

Other observations

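Of the 74 other pathway genes, 7 were too low to be tested. SCRIB, a polarity gene, and FRMD1 had 0 reads in all 6 libraries, which allows up to 3 reads per library, counting error only. TJP1, the tight-junction gene, had 0 to 5 reads, and MOB4, a STRIPAK gene, had 0 to 3. DCHS1, DCHS2 and MAP4K1 had at most 6, 14 and 8 reads in any library. Whether these genes are expressed in HCC827 cells was not tested.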
